A study of Mus musculus with 8 samples.

Results

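The metalloproteases and their inhibitors described here are the mouse genes whose symbols start with Mmp, Adam, Adamts or Timp followed by a digit, with Mmp8 left out. Of the 29956 genes named in the series' expression table, 77 met this rule: 21 Mmp, 33 Adam, 19 Adamts and 4 Timp genes. Transcripts were read in liver macrophages of BALB/c WT mice. There were 4 libraries for vehicle control and 4 for carbon tetrachloride (CCl4), a toxin that injures hepatocytes. The sample titles name the CCl4 libraries fibrosis and the vehicle libraries control. Per the labels' protocols, the sorted cells were alive and positive for CD45 and F4/80, and the series' design text adds that they lacked CD31. Both groups share the strain, the genotype, the collagenase digestion and the amplification of a small amount of RNA. The sources used here give neither the dose nor the duration of CCl4, and no source ties each library to a mouse of its own. The p-values therefore rest on the variation among these 8 libraries, part of which may be technical.

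Matrix metalloproteases (Mmp) are zinc enzymes, secreted or anchored in the membrane, that cut collagens, elastin and other matrix proteins after their prodomain is removed. Adam proteases sit in the membrane and release the outer parts of neighbouring proteins, a step called shedding, while Adamts proteases are secreted and cut proteoglycans, procollagens and von Willebrand factor. The Timp proteins bind the active sites of these enzymes and block them, and liver macrophages are known both as a source of matrix-degrading enzymes and as cells whose cytokines and receptors are shed.

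Mmp12, the macrophage elastase, gave the largest share of the transcripts of these genes. It is one of 8 neighbouring Mmp genes of this set within 427072 bases of chromosome 9 (chr9:7272514-7699585, mm10, GENCODE M21). Mmp genes outside the set, such as Mmp8, are not counted. The 8 are Mmp13, Mmp12, Mmp1b, Mmp3, Mmp10, Mmp27, Mmp20 and Mmp7, and 3 of them, Mmp13, Mmp12 and Mmp27, had enough reads to be tested. Stretches just before the RefSeq start sites (GRCm38.p6) of the 3 tested genes and Mmp10 are shown because these neighbours differed widely in level. Of the 3 tested genes only Mmp12 changed. Mmp10 was picked after its values were seen, and the stretches of Mmp1b, Mmp3, Mmp20 and Mmp7 are not printed. Capitals mark a match to the AP-1 motif, TGACTCA or TGAGTCA, except in the first Mmp12 line, where they mark the reverse complement of the PU.1 core GAGGAAGT. All lines run 5′ to 3′ on the strand of the gene. The first Mmp12 line stops where the earliest annotated exon begins, and the downstream start lies inside the gene.
Mmp13, chr9:7272414-7272513, plus strand: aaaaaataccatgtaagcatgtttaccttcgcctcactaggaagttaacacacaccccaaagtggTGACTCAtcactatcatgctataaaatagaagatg
Mmp12, upstream start, chr9:7344297-7344380, plus strand: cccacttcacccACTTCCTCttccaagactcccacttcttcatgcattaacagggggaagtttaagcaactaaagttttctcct
Mmp12, downstream start, chr9:7347274-7347373, plus strand: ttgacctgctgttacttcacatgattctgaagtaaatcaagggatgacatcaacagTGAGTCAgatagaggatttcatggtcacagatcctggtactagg
Mmp10, chr9:7502242-7502341, plus strand: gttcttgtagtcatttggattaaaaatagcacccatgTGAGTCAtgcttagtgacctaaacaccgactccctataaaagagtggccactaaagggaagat
Mmp27, chr9:7571296-7571395, plus strand: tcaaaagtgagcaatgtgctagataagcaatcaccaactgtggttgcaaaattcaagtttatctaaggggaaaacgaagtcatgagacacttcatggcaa

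AP-1 letters began 35 bases before the start of Mmp13, 44 before the downstream start of Mmp12, 46 before that of Mmp3, 63 before those of Mmp10 and Mmp7, and 93 before that of Mmp1b. Of the 10 distinct RefSeq promoters of the 8 cluster genes in the set, 6 held a match within 250 bases of the start. Among the 42 promoters of the other members, 2 did (Adam19 and Adam29). Of the 77 genes, 47 had an entry in the RefSeq table, and 8 of their 52 promoters (15.4%) held the AP-1 letters on either strand, where 4.45% of 32536 promoters of the same length did. The E-box CACGTG stood in 5 of the 52 (9.62%, against 6.04%) and the PU.1 core in 3 (5.77%, against 2.45%). A match describes letters and is not a bound site. The 7 changed genes with an entry had 8 promoters, of which 1, at the downstream start of Mmp12, held the AP-1 letters.

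Levels across genes are given as TPM, which is corrected for transcript length, and comparisons between the groups as CPM (counts scaled to a common library total, TMM-normalized), tested by edgeR's quasi-likelihood test with Benjamini-Hochberg adjustment over 15212 genes. Library totals ran from 19428080 to 26119347 estimated counts. Of the 77 genes, 46 had enough reads to be tested and 31 did not. Of the 46, 7 were higher with CCl4 (15.2%, against 8.93% of all genes tested) and 2 were lower (4.35%, against 6.26%), so that 9 changed (19.6%, against 15.2%). The 8 libraries fell into groups that did not overlap for 12 of the 46 (26.1%, against 22.5%), 10 higher and 2 lower. The share of changed members was thus close to that of all genes, and the median log2 fold change of the tested members was 0.28, where that of all genes tested was -0.03. These shares depend on scaling: higher genes made up 58.8% of all calls, but 43.1% with library size alone and 47.5% with upper-quartile factors, which moved the median of all genes to -0.16 and -0.12. The 7 higher and 2 lower members were the same under those scalings.

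**Figure D1:**
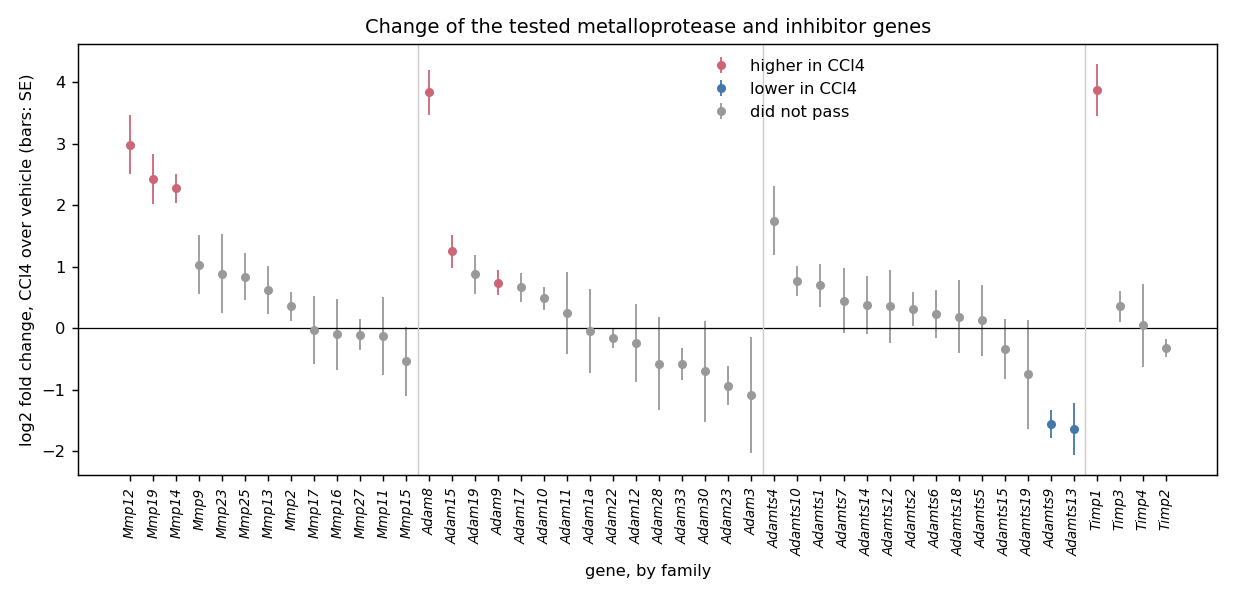
Log2 fold change (CCl4 over vehicle) of the 46 tested genes, grouped by family along the x axis; bars are standard errors of the fitted fold change and colours mark the edgeR call. Adam8, at 3.84, and Timp1, at 3.88, stand highest, and the 2 lower genes, Adamts9 and Adamts13, are both secreted Adamts proteases.

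By family, 3 of 13 tested Mmp genes rose and none fell (median log2 fold change 0.63), 3 of 15 tested Adam genes rose and none fell (median -0.04), none of 14 tested Adamts genes rose and 2 fell (median 0.28), and 1 of 4 Timp genes rose (median 0.21). Among all genes tested, 8.93% rose and 6.26% fell. The 9 changed genes lie on 9 different chromosomes. Levels were uneven: 13 of the 77 genes had a mean above 10 TPM and 50 had a mean under 1 TPM.

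Among the matrix-degrading enzymes, Mmp12 (chr9:7344381-7369499, plus strand) rose most in absolute amount. Its vehicle libraries stood at 599.5, 660.5, 235 and 331 CPM and its CCl4 libraries at 6307, 1293, 4251 and 2639.5 CPM. Every CCl4 library lay above every vehicle library, yet the CCl4 libraries spanned a 4.88-fold range. The change was 7.94-fold (log2 2.99, SE 0.48, edgeR adjusted p = 0.00143, n = 4 against 4). On the TPM scale Mmp12 went from 394 ± 154 to 3297 ± 1878 (SD), which moved it from place 289 to place 28 among all genes ordered by mean TPM. The transcripts Mmp12-203 and Mmp12-202, both coding, held 47.4% and 21.9% of its TPM in vehicle and 51.3% and 23.6% with CCl4, and Mmp12-204, annotated as a target of nonsense-mediated decay, held 24.9% and 23.0%.

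Mmp14, the membrane-anchored collagenase that also activates pro-Mmp2, rose with far less spread between libraries. It measured 27.1, 19.2, 12.7 and 18.3 CPM in vehicle and 112.7, 78.6, 110.3 and 73.3 CPM with CCl4, where the highest and lowest libraries differed 1.54-fold. The groups did not overlap, and the change was 4.85-fold (log2 2.28, SE 0.24, edgeR adjusted p = 0.000118). The gene lies at chr14:54431612-54445364, and its coding transcript Mmp14-201 held 89.2% of its TPM in vehicle and 88.2% with CCl4.

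Mmp19 (chr10:128790910-128800824, plus strand), a secreted protease that cuts basement membrane proteins, stood at 25.9, 21.5, 18.7 and 21.4 CPM in vehicle and 181.2, 33.8, 165.0 and 91.6 CPM with CCl4. The groups did not overlap, but the CCl4 libraries spanned 5.37-fold, with replicate 2 close to the vehicle level. Its fold change was 5.39 (log2 2.43, SE 0.41, edgeR adjusted p = 0.00211). With length-scaled TPM counts the log2 value was 1.10 (edgeR adjusted p = 0.0212), and in the limma fit of unfiltered FPKM values its call was lost (adjusted p = 0.108). Most of its TPM came from Mmp19-202, a retained-intron transcript of 349 bases, at 48.9 ± 1.8 TPM in vehicle and 69.2 ± 17.5 TPM with CCl4. The coding transcripts together went from 7.58 ± 1.56 to 47.3 ± 25.3 TPM. Tmem198b, on the opposite strand over the end of Mmp19, also rose, from 10.8 to 24.1 CPM (log2 1.16, edgeR adjusted p = 0.00475), and since no strand-marking step is named, reads of the overlap cannot be told apart.

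The order of the CCl4 libraries was the same for Mmp12, Mmp19, Mmp13, Mmp25, Adamts7 and Adamts13, with replicate 1 highest, then 3, 4 and 2. For Adamts7 it rests on few reads, with 47, 21, 31 and 22 estimated counts in replicates 1 to 4. Adamts13 was low as well. Itgax, which encodes CD11c and stood in the monocyte marker list, had that order too, at 334, 82.9, 299 and 156 CPM in replicates 1 to 4 against 15.03 to 21.7 CPM in vehicle. Chil3, another marker in that list, was instead highest in replicate 2, at 82.9 CPM, and lowest in replicate 3, at 16.4 CPM. Both markers were picked after their values were seen, and the order of the rest of the list is not given. Mmp14, Mmp9, Adam9, Adam17, Adamts4 and Adamts9 had another order, with replicate 1 highest, then 3, 2 and 4. The share of all genes tested with either order was not counted. Whether the spread of Mmp12 follows the mix of cells in each library was not tested.

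**Figure D2:**
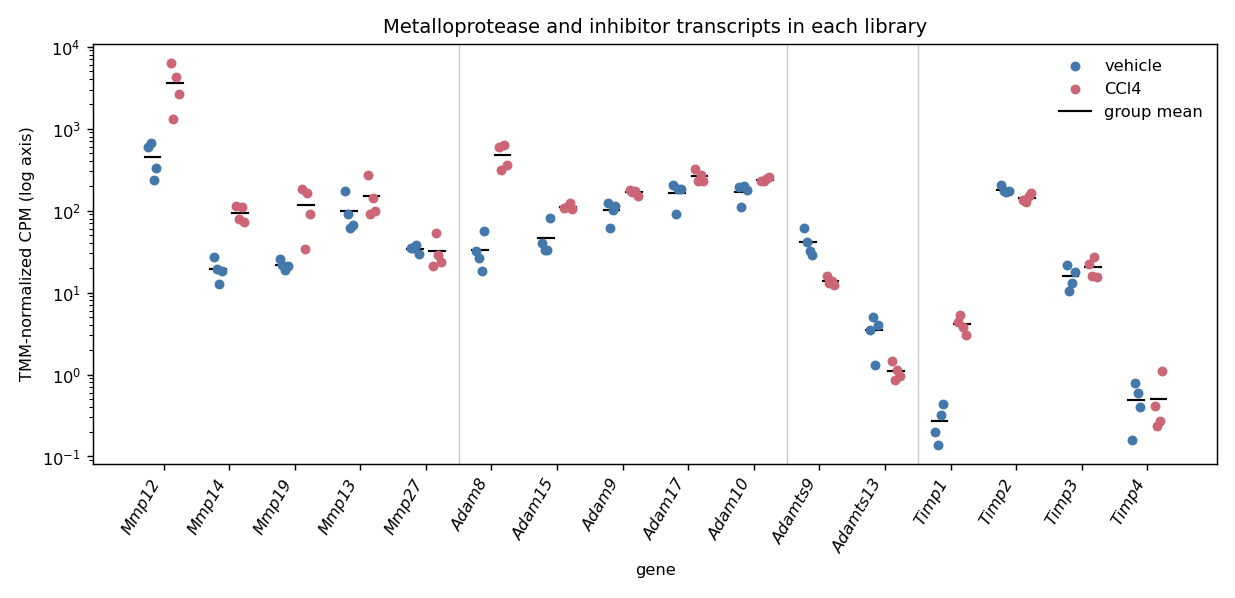
TMM-normalized CPM (log axis) of 16 genes in each library; points are the 4 vehicle and 4 CCl4 libraries and black lines are group means, with grey lines between the Mmp, Adam, Adamts and Timp genes. Mmp12 and Mmp19 spread widely among the CCl4 libraries, Adam15 and Adam9 cluster tightly there, and Timp1 is low in every library.

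Other well-known matrix proteases did not pass the test. Mmp13, the main rodent collagenase, stood at 173, 90.5, 61.5 and 66.9 CPM in vehicle and 273, 91.3, 143.9 and 97.8 CPM with CCl4, and its groups overlapped (log2 fold change 0.63, SE 0.39, edgeR adjusted p = 0.334). Mmp9, gelatinase B, which neutrophils also carry, measured 4.46 ± 2.33 and 9.15 ± 4.64 CPM (log2 1.03, edgeR adjusted p = 0.185). It passed when CCl4 replicate 4 was left out (adjusted p by edgeR, DESeq2 or limma between 0.0207 and 0.442 over its alternatives). Mmp2, gelatinase A, a product mainly of stellate cells and fibroblasts, was at 7.63 ± 1.92 and 9.77 ± 1.99 CPM (log2 0.36, edgeR adjusted p = 0.35).

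Within the chromosome 9 cluster, levels spanned several orders of magnitude between neighbours. Mmp27 had 28.1 ± 2.8 TPM in vehicle and 25.6 ± 11.9 TPM with CCl4 and did not pass the test (log2 fold change of the counts -0.11, edgeR adjusted p = 0.832). Mmp10, stromelysin-2, had too few reads to be tested, at 3, 0, 2 and 0 estimated counts in vehicle and 20, 14, 16 and 4 with CCl4, groups that did not overlap. Mmp3, stromelysin-1, pointed the other way in 2 vehicle libraries, with 42, 48, 2 and 5 counts against 8, 3, 4 and 4. Mmp1b, Mmp20 and Mmp7 stayed at or below a group mean of 0.59 TPM. Mmp1b overlaps the end of Mmp12 on the other strand, and its 0 to 3 counts per library were a very small fraction of those of Mmp12.

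**Figure D3:**
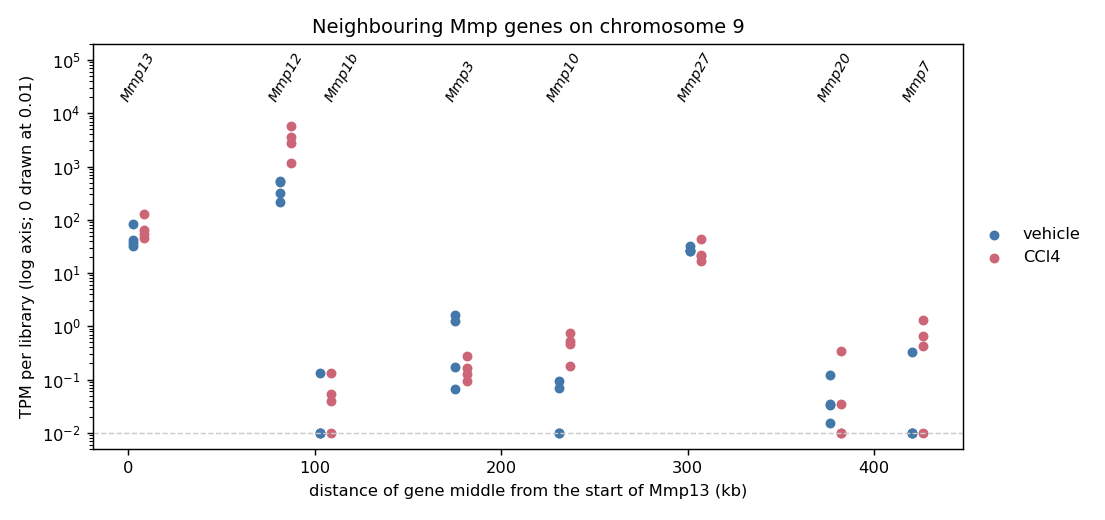
TPM per library (log axis, values of 0 drawn at 0.01) of the 8 neighbouring Mmp genes against the distance of each gene's middle from the start of Mmp13 in kilobases; blue points are vehicle and red points CCl4 libraries. Mmp12 lies far above its neighbours, Mmp13 and Mmp27 lie between it and the other 5 genes, which stay under 2 TPM.

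Among the membrane proteases that shed other proteins, Adam8 changed most. Adam8, a protease of myeloid cells that activates itself, stood at 32.0, 26.7, 18.6 and 55.6 CPM in vehicle and 589.6, 314, 637 and 363 CPM with CCl4. The lowest CCl4 library was several times above the highest vehicle library, and the fold change was 14.3 (log2 3.84, SE 0.36, edgeR adjusted p = 5.98e-05). Adam8 (chr7:139978932-139992562, minus strand) thereby went from 15.3 ± 7.8 to 206 ± 54 TPM, second only to Mmp12 among the 77 genes by mean TPM over all libraries.

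Adam15 (chr3:89338542-89349996, minus strand), a membrane protease with a disintegrin domain, measured 40.5, 33.2, 32.8 and 81.1 CPM in vehicle and 107.8, 112, 123 and 105.4 CPM with CCl4. Its groups did not overlap, although vehicle replicate 4 was well above the other 3, and the change was 2.39-fold (log2 1.26, SE 0.27, edgeR adjusted p = 0.00782). Only the limma fit of unfiltered FPKM values lost this call (adjusted p = 0.0718). Adam9 (chr8:24949611-25016927, minus strand), another widely expressed sheddase, went from 100.4 ± 27.7 to 168 ± 12 CPM, where vehicle ran from 61.1 to 124.5 CPM and CCl4 from 149.9 to 176.0 CPM (log2 0.74, SE 0.20, edgeR adjusted p = 0.029). The call of Adam9 was lost without vehicle replicate 3 or 4 or without CCl4 replicate 1, 2 or 3, with edgeR adjusted p between 0.0511 and 0.0731, and in the 3 limma fits of FPKM values (adjusted p up to 0.416).

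Adam17 and Adam10, the main sheddases of tumour necrosis factor and of Notch and many other receptors, were among the most abundant Adam genes. Adam17 measured 202.8, 91.6, 181.5 and 184.2 CPM in vehicle and 321.7, 228, 274 and 227 CPM with CCl4 (log2 fold change 0.67, SE 0.23, edgeR adjusted p = 0.0796). Adam10 measured 195, 112, 199 and 177 CPM in vehicle and 231, 228, 245 and 254 CPM with CCl4 (log2 0.49, SE 0.18, edgeR adjusted p = 0.0984). Neither passed the test, although the groups of both did not overlap. Vehicle replicate 2 was the lowest library for both, as it was for Adam9. Adam17 passed under 4 alternatives, among them the fit without vehicle replicate 2 and CCl4 replicate 4, and its adjusted p by edgeR, DESeq2 or limma ran from 0.0313 to 0.455.

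Adam23, which binds integrins and has no protease activity, was one of the 3 genes nearest to the threshold from above, at 8.32 ± 3.33 and 4.35 ± 1.36 CPM (log2 -0.93, edgeR adjusted p = 0.0728). Of the 18 Adam genes that were not tested, most are known from the testis and the male germ line, such as Adam2, Adam5 and Adam32. They were detected with at most 20 estimated counts in any library.

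Both genes that fell were Adamts proteases. Adamts9 (chr6:92772699-92943492, minus strand), which cuts the proteoglycan versican, stood at 61.2, 41.2, 32.1 and 29.1 CPM in vehicle and 16.1, 13.1, 13.9 and 12.3 CPM with CCl4. The groups did not overlap and the CCl4 libraries were within 1.32-fold of each other (log2 fold change -1.56, SE 0.23, edgeR adjusted p = 0.000802). Most of this signal came from transcripts that are not annotated as coding. The retained-intron transcripts Adamts9-203 and Adamts9-206 and the processed transcript Adamts9-204 held 6.52, 4.15 and 4.05 TPM in vehicle. With CCl4 they held 1.58, 1.90 and 0.90 TPM. The coding Adamts9-201 had 0.68 ± 0.34 TPM in vehicle and 0.40 ± 0.14 TPM with CCl4. Its groups overlapped, at 0.19 to 0.97 TPM in vehicle and 0.27 to 0.57 TPM with CCl4. A730049H05Rik, on the opposite strand within Adamts9, fell too, from 4.92 to 0.56 CPM (log2 -3.11, edgeR adjusted p = 0.0148), and reads of the overlap cannot be told apart.

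Adamts13 (chr2:26973416-27009628, plus strand), the protease that cuts von Willebrand factor, was low, at 3.48, 5.02, 1.31 and 4.0 CPM in vehicle and 1.48, 0.87, 1.13 and 0.95 CPM with CCl4. Vehicle replicate 3 overlapped the CCl4 libraries (log2 -1.64, SE 0.43, edgeR adjusted p = 0.0237). Its call was lost without vehicle replicate 1, 2 or 4 or without CCl4 replicate 2 or 3, with edgeR adjusted p between 0.0536 and 0.0679. In the liver Adamts13 is known as a product of stellate cells, which lack CD45 and F4/80, both used in the sort. Transcripts of 12 stellate cell and fibroblast markers were still read, at a summed 673 to 1419 CPM in vehicle and 580 to 937 CPM with CCl4. Markers of stellate cells and fibroblasts went both ways: of 12 tested, 3 rose (Col1a1, Col1a2 and Col3a1) and 3 fell (Lrat, Reln and Ecm1). That is 25.0% each way, against 8.93% and 6.26% of all genes tested. The part of these markers in the level of Adamts13 was not tested. In bulk libraries, fewer cells of a type and less RNA per cell cannot be told apart.

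Of the other 12 tested Adamts genes, none passed. Adamts10, which acts on fibrillin microfibrils, was at 34.0, 14.1, 26.9 and 35.5 CPM in vehicle and 46.7, 44.7, 43.4 and 54.0 CPM with CCl4, groups that did not overlap (log2 0.77, SE 0.24, edgeR adjusted p = 0.0538). It passed under 7 alternatives, among them those without vehicle replicate 2 and without vehicle replicate 4. Adamts4, an aggrecanase, was at 3.99 ± 3.32 and 13.5 ± 8.3 CPM (log2 1.75, SE 0.56, edgeR adjusted p = 0.0577). It passed without vehicle replicate 1, its highest vehicle library at 8.77 CPM, where its log2 value was 2.50, and without CCl4 replicate 4.

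The inhibitors split by member. Timp1 (chrX:20870166-20874735, plus strand), the inducible secreted inhibitor, had 5, 3, 8 and 11 estimated counts in the vehicle libraries and 95, 134, 84 and 64 with CCl4. That is 0.27 ± 0.13 and 4.13 ± 0.95 CPM, a 15.1-fold change between groups that did not overlap (log2 3.88, SE 0.43, edgeR adjusted p = 0.000158). Timp1 stayed a minor inhibitor in these cells, at 8.29 ± 1.77 TPM with CCl4.

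Timp2, which blocks Mmp enzymes and also helps Mmp14 to activate pro-Mmp2, supplied most inhibitor RNA. It stood at 204.6, 174.8, 168.6 and 172.5 CPM in vehicle and 133, 129, 153 and 163 CPM with CCl4. Every CCl4 library was below every vehicle library, but the difference did not pass (log2 -0.32, SE 0.14, edgeR adjusted p = 0.159). With length-scaled TPM counts and in limma fits of the deposited FPKM values with a filter it did (adjusted p = 0.0447, 0.0155 and 0.0174, the last with the smaller pseudocount). Timp3, which is bound to matrix and inhibits Adam17, was at 15.7 ± 4.9 and 20.2 ± 5.5 CPM (log2 0.36, edgeR adjusted p = 0.389). Timp4 was at 0.16 to 1.09 CPM, and the sign of its log2 value (0.05, edgeR adjusted p = 0.972) turned under both of those scalings (library size alone, upper-quartile factors).

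Summed over each family, the balance of protease to inhibitor transcripts differed between the groups. The 21 Mmp genes together held between 351 and 699 TPM in vehicle and between 1352 and 6028 TPM with CCl4, while the 4 Timp genes held between 99.1 and 115.3 TPM and between 70.8 and 115.1 TPM. The ratio of Mmp to Timp TPM lay between 3.54 and 6.12 in vehicle and between 16.9 and 76.3 with CCl4. Mmp12 dominated this ratio, as it held 60.5% to 78.6% of the Mmp TPM in vehicle and 84.8% to 93.6% with CCl4. Of the TPM of all 77 genes Mmp12 held 31.1% to 55.2% in vehicle and 61.3% to 84.6% with CCl4. Without Mmp12 the ratio was 1.31 to 1.66 in vehicle and 2.19 to 4.85 with CCl4, ranges that still did not overlap. These sums include transcripts not annotated as coding. The retained-intron transcript Mmp19-202 gave 48.9 of a mean 155 Mmp TPM without Mmp12 in vehicle, and 69.2 of 284 TPM with CCl4. The sum without Mmp12 also holds the other called Mmp genes, Mmp14 and Mmp19. Their coding transcripts Mmp14-201 and Mmp19-201 had means of 8.96 and 4.18 TPM in vehicle, and 44.8 and 29.5 TPM with CCl4. A ratio without these genes was not computed.

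The Adam sum also separated the groups, at 144 to 245 TPM in vehicle and 406 to 528 TPM with CCl4. Adam8 alone gave 15.3 of a mean Adam sum of 196 TPM in vehicle, and 206 of 480 TPM with CCl4. The Adamts sum did not separate the groups, at 34.1 to 45.9 TPM in vehicle and 33.7 to 49.3 TPM with CCl4. Within the inhibitors, Timp2 held 92.3% to 95.9% of the Timp TPM in vehicle and 80.0% to 85.1% with CCl4. TPM sums count RNA and not active enzyme or bound inhibitor.

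**Figure D4:**
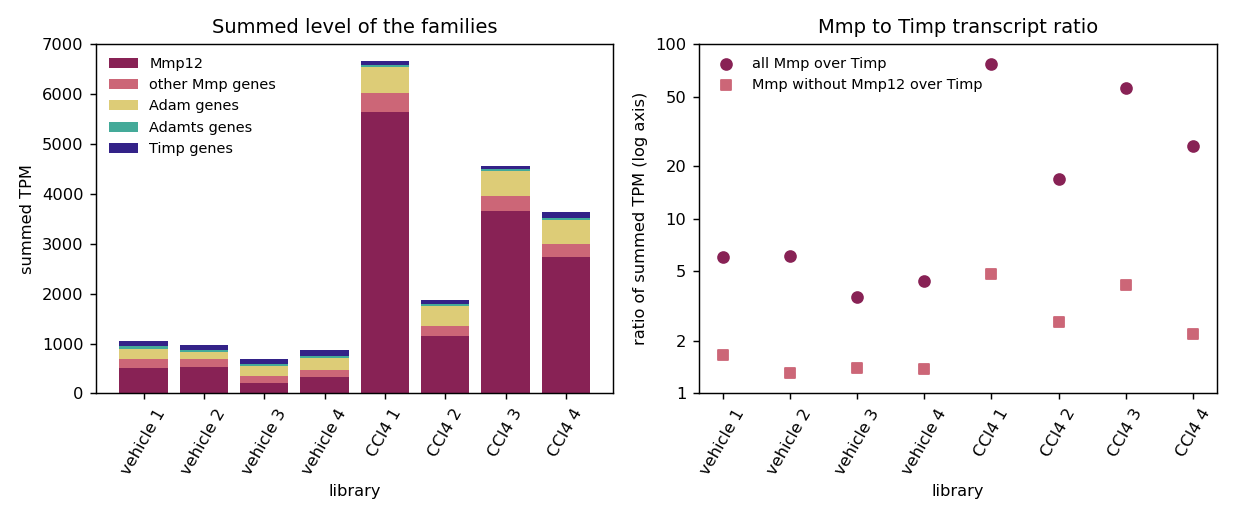
Left, summed TPM of Mmp12, the other Mmp genes and the Adam, Adamts and Timp genes in each library as stacked bars from 0. Right, the ratio of Mmp to Timp TPM in each library (log axis), with and without Mmp12; all CCl4 libraries lie above all vehicle libraries in both, at 16.9 to 76.3 with Mmp12 and 2.19 to 4.85 without it.

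The estimated counts are made per transcript, so the share of a gene's TPM held by its leading transcript could be compared for the 9 changed genes. With 4 libraries against 4, the exact two-sided permutation test cannot give a p below 0.0286, and no share passed after Benjamini-Hochberg adjustment over the 9 tests. For 3 genes the groups did not overlap, each with an exact permutation p of 0.0286 (adjusted 0.0857). The coding transcript Adam15-201 held 31.8%, 30.2%, 39.7% and 42.2% of the Adam15 TPM in vehicle and 58.6%, 58.8%, 59.0% and 60.4% with CCl4. Adam15-202, a shorter coding transcript of 2799 bases, held 29.7% ± 10.9 in vehicle and 8.56% ± 3.96 with CCl4.

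Adam8-201 held 45.4% ± 2.0 of the Adam8 TPM in vehicle and 58.3% ± 2.7 with CCl4, while Adam8-202, whose annotated length differs little (3117 against 3100 bases), held 35.9% ± 5.1 and 19.8% ± 2.2. Mmp19-202, the retained-intron transcript, held 86.6% ± 2.7 and 62.2% ± 10.7. The authors' transcript models can differ from the annotation used to name these transcripts, and with fewer reads in vehicle the shares there are less precise.

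**Figure D5:**
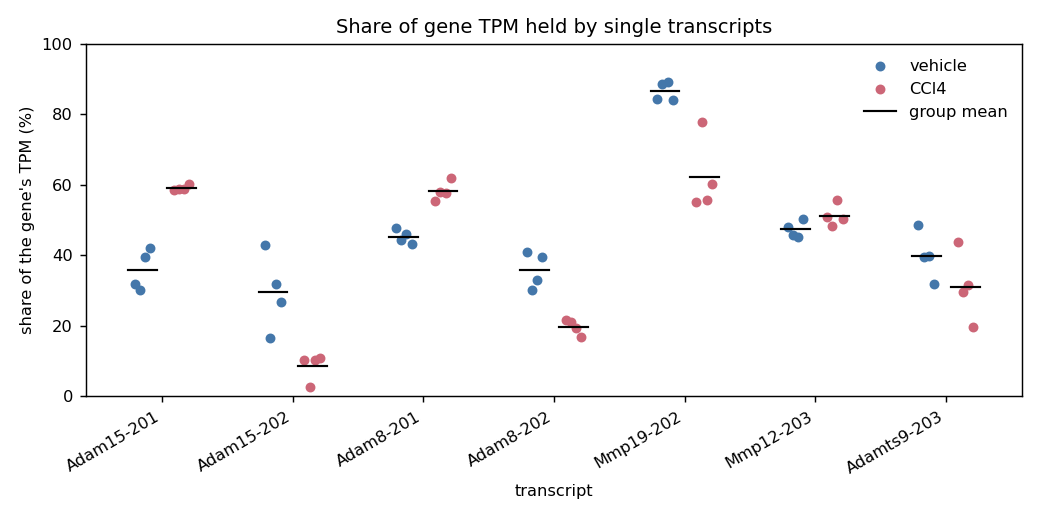
Share of the gene's TPM (%) held by single transcripts of Adam15, Adam8, Mmp19, Mmp12 and Adamts9; points are libraries and black lines group means. The CCl4 libraries of Adam15-201 lie within 58.6% to 60.4%, above all vehicle libraries, while Mmp12-203 (47.4% and 51.3%) and Adamts9-203 (40.0% and 31.2%) overlap between groups.

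The genes around these enzymes were read from 4 lists. Of 20 tested genes that activate or carry metalloproteases, 4 rose and 2 fell (median log2 0.26). Furin, the convertase that removes the prodomain of Adam proteases and of Mmp14, went from 22.4 ± 2.7 to 72.8 ± 12.4 CPM (log2 1.70, SE 0.16, edgeR adjusted p = 5.98e-05), and its groups did not overlap. Sh3pxd2b, a scaffold of the podosomes where Mmp14 acts, rose by a log2 of 2.47, Plat, a plasminogen activator, by 1.31, and Tspan5, one of the tetraspanins that carry Adam10, by 1.54. Tspan15, another Adam10 partner, fell from 520 ± 108 to 164 ± 32 CPM (log2 -1.67, SE 0.20, edgeR adjusted p = 0.000272), and the podosome protein Cttn fell too (log2 -0.99). These 2 Adam10 partners thus changed in opposite directions.

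Of 13 tested other inhibitors and clearance receptors, 4 rose (30.8%, against 8.93% of all genes tested) and 1 fell (7.69%, against 6.26%). Their median log2 value was 0.41. Cd109, a membrane protein of the alpha-2-macroglobulin family, rose from 0.92 ± 0.30 to 7.24 ± 3.37 CPM (log2 2.97, SE 0.40, edgeR adjusted p = 0.000486), Spock3 by a log2 of 2.03 and Lrpap1, the chaperone of the clearance receptor Lrp1, by 0.69. Serpinb2, an inhibitor of plasminogen activation, fell by 1.48 on the log2 scale (edgeR adjusted p = 0.0314).

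Among 28 membrane proteins known to be shed by Adam10 or Adam17, 7 rose (25.0%, against 8.93% of all genes tested) and 4 fell (14.3%, against 6.26%). In this mixed picture, with a median log2 value of 0.12, 11 of 28 changed (39.3%, against 15.2%). Trem2, a lipid receptor shed by both enzymes, rose from 53.5 ± 8.3 to 553 ± 100 CPM (log2 3.37, SE 0.19, edgeR adjusted p = 2.63e-06), and Havcr2, Tnfrsf1b, Jag1, Il6ra, Cxcl16 and Notch2 rose by log2 values of 2.00, 1.70, 1.69, 1.5, 0.75 and 0.62. Cd163, the scavenger receptor for haemoglobin, had a log2 fold change of -3.26, and the growth factors Hbegf and Areg and the cytokine Tnf had values of -2.14, -1.10 and -1.62. RNA levels do not say how much of these proteins was shed.

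Of 20 tested related zinc proteases and Adamts-like proteins, 4 rose and 1 fell (median log2 0.30). Anpep, aminopeptidase N, rose from 3.81 ± 1.04 to 65.4 ± 22.4 CPM (log2 4.10, SE 0.30, edgeR adjusted p = 1.65e-05), a log2 value above that of each of the 46 tested members. Adamtsl1, Adamtsl5 and Cpd rose by log2 values of 2.30, 1.42 and 1.23. Adamdec1, a relative of the Adam proteases found in tissue macrophages, had a log2 fold change of -2.11 (edgeR adjusted p = 9.1e-05). Over the 4 lists 19 of 80 distinct tested genes were higher and 8 lower, where 8.93% and 6.26% of all tested genes were. The lists are small and were chosen with earlier results of these data known.

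Markers of macrophages were high in all libraries, with a summed level of 10 markers between 30160 and 33457 CPM in vehicle and between 54500 and 69630 CPM with CCl4. Of these 10, 1 rose, the abundant lysozyme gene Lyz2 (16441 to 47034 CPM), none fell, and the median log2 value was 0.015. Markers of several cell types moved in the same libraries as the members, where 8.93% of all genes tested rose and 6.26% fell. Of 8 Kupffer cell markers 7 fell (15960 to 24560 CPM and 6046 to 11285 CPM), and of 8 monocyte markers 3 rose (97.5 to 168 CPM and 533 to 663 CPM). Of 12 neutrophil markers 7 rose (101 to 231 CPM and 232 to 507 CPM), and 1 of them, Elane, was at 0 in every vehicle library. Of 11 mesothelial markers 9 rose (10.3 to 39.6 CPM and 86.5 to 228 CPM). Of 12 stellate cell and fibroblast markers 3 rose and 3 fell (673 to 1419 CPM and 580 to 937 CPM), and of 10 sinusoidal endothelial markers 8 fell (569 to 959 CPM and 214 to 347 CPM). Of 3 tested cholangiocyte markers 1 rose, Spp1, from 96.2 to 2199.7 CPM, and the list's sum went with it (19.4 to 227 CPM and 1479 to 3356 CPM). Spp1 encodes osteopontin, which macrophages can also make. Of 3 platelet markers 1 fell (82.9 to 202 CPM and 30.9 to 94.8 CPM), of 6 hepatocyte markers 1 fell, of 6 conventional dendritic cell markers 1 rose and 1 fell, and none of the tested plasmacytoid dendritic, B, T and NK, or mast cell and basophil markers passed. No list had a marker at 0 in every library. Neutrophils are known to carry Adam8, Mmp9 and Mmp25, and fibroblasts to make Timp1, Mmp14 and Mmp2. The part of these cells in the changes of the members was not tested.

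The 31 untested genes gave a further view of the libraries. Their summed level was 9.52 CPM in vehicle replicate 2 and 11.9 CPM in CCl4 replicate 4, against 2.72 to 4.30 CPM in the other 6. Those 2 libraries also had the highest summed level of olfactory and vomeronasal receptor genes, 2853 and 2838 CPM, against 721 to 1468 CPM elsewhere. Without both libraries 11 of 45 tested members were higher and 2 lower, where 1653 and 1163 of 14982 genes were. Adam8, Mmp14, Timp1, Adamts9, Mmp12, Mmp19, Adam15 and Adam9 kept their calls, while Adamts13 lost its call (edgeR adjusted p = 0.0722) and Adam28 was called lower. The mitochondrial share of counts was 1.91% to 5.31% in vehicle and 0.763% to 1.16% with CCl4, and its part in these results was not tested.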

How the data were processed

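The authors deposited, per sample, kallisto estimated counts and TPM per transcript with transcript lengths, and a table of FPKM per gene for the series. Per the submitters' processing notes kallisto, edgeR, limma and mm10 were used; the sources used here do not give their versions or how the FPKM table was made. Estimated counts were summed per gene by the GENCODE M21 annotation and rounded; 116405 of 117494 transcripts matched without the version suffix, 13 with it, and the rest held 0.29% to 0.313% of counts. The 1 unnamed FPKM line (0.0156% to 0.0369% of a column) was left out. All 77 members matched 1 gene each.

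CCl4 was compared with vehicle by edgeR 4.0.16 (R 4.3.3) on 15212 of 35906 genes (filterByExpr, minimum count 10, minimum total 15), two-sided, with TMM factors, group alone in the model and an adjusted p under 0.05; the SE is the log2 fold change divided by the root of F. Deposited TPM served for levels and transcript shares, deposited FPKM for limma 3.58.1 on log2(FPKM + 1) or log2(FPKM + 0.1), with a mean of at least 0.5 or no filter. The other alternatives were DESeq2 1.42.0, other scalings and filters, length-scaled TPM counts, a replicate block and left-out libraries. The fit was tested on simulated data, where the share of false calls exceeded the nominal level, so calls near the threshold are less certain than their adjusted p.

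Named genes were all called members, the 4 Timp genes, Adam10, Adam17, Mmp14, Mmp9, Mmp13, Mmp2 and Adam9, the 10 highest by TPM, the 3 nearest to the threshold and the called partner genes; all other members named (such as Mmp27, Mmp10, Mmp3, Mmp24 and Adam28), overlapping genes and single markers were named after their values were seen. The members and lists were chosen with earlier results of these data known. Reads of near-identical Adam genes may be split between them by kallisto, which leaves their values uncertain. Protein sequences were not used here. One called partner gene is not reported here.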

Additional observations from a re-analysis of the deposited data

Results flagged for a closer look

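Adam15 in vehicle replicate 4 stood apart from the other vehicle libraries, at 81.1 CPM against 32.8 to 40.5 CPM, a gap of 0.841 of the group's whole range, past Dixon's 95% critical value for 4 values. Such a gap comes up by chance in about 1 in 20 groups, and 40 groups, 20 named members in 2 groups each, were examined. Without that library Adam15 remained higher with CCl4. No explanation was tested.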

How the results depend on the processing

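Over 20 alternatives the direction and call of the 20 named members were kept in 337 of 384 single fits; 18 lost a call, 22 gained one and 7 changed sign. Adam8, Mmp12, Mmp14, Timp1 and Adamts9 kept their calls in every alternative that could test them. All 7 sign changes were of Timp4, whose log2 value was 0.05 as reported and -0.045 with library size only, -0.027 with upper-quartile factors, -0.18 with length-scaled TPM counts, -0.015 with the replicate block, -0.20 without vehicle replicate 1, -0.03 without vehicle replicate 4 and -0.64 without CCl4 replicate 4 (up to 0.38 without vehicle replicate 2). The 7 higher of 46 tested members stood beside 1358 of 15212 genes. They became 11 of 54 with DESeq2 (1717 of 16525 genes) and 12 of 77 with no low-count filter (1445 of 28917). With the replicate block they were 11 of 46 (1281 of 15212), and with limma on log2(FPKM + 1) unfiltered 4 of 76 (335 of 24443). Without vehicle 2 and CCl4 4 they were 11 of 45 (1653 of 14982), and 6 to 10 when 1 library was left out (1004 to 1511 genes). The 2 lower stood beside 953 of 15212 genes, and became 1 with the replicate block (829 of 15212) and 1 with limma unfiltered (315 of 24443). They were 1 to 4 when 1 library was left out (581 to 1164 genes). That was 1 without vehicle replicate 1, 2 or 4 or CCl4 replicate 2 or 3, and 4 without CCl4 replicate 4. The cause was not tested. Of the partner genes 19 were higher, and 6 with each of the 3 limma fits, where 534 and 521 of 8249 genes (filtered) and 335 of 24443 (unfiltered) were. Of the partner genes 8 were lower, and 5 with limma unfiltered. The filtered limma fits tested 47 partner genes instead of 80, and the unfiltered fit 91. The pseudocount compresses low genes: Timp1 had a log2 value of 0.84 and Adamts13 of -0.14 with limma unfiltered. Same-numbered libraries did not deviate together (correlations 0.02, -0.24, 0.04 and -0.17, and none was closest to its own number). The main fit therefore did not pair the samples by number, although such correlations cannot exclude pairing. With the replicate block Adamts13 had an edgeR adjusted p of 0.0746.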

Other observations

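Mmp24, a membrane-anchored protease known from the nervous system, had too few reads to be tested but did not overlap between groups, with estimated counts of 3.3, 0, 1.1 and 0 in vehicle and 4.6, 5.7, 5.7 and 11.3 with CCl4. Mmp10 passed under 6 alternatives: DESeq2, no low-count filter, without vehicle replicate 1, without vehicle replicate 2, without CCl4 replicate 4, and without vehicle replicate 2 and CCl4 replicate 4 together. Syn1, on the opposite strand over Timp1, was at 13.0 ± 5.1 CPM in vehicle and 6.86 ± 2.02 CPM with CCl4 and did not pass (edgeR adjusted p = 0.0706), so it moved the other way from Timp1. In the deposited FPKM table the ratio of CCl4 to vehicle means was 8.45 for Mmp12, 12.8 for Adam8, 14.3 for Timp1, 6.64 for Mmp19, 4.75 for Mmp14, 0.245 for Adamts9 and 0.564 for Timp2.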
